A study of Mus musculus with 6 samples.

Results

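The 10 genes described here are the Notch receptors Notch1, Notch2, Notch3 and Notch4, the Notch ligands Jag1, Jag2, Dll1 and Dll4, and the Notch targets Hes1 and Nrarp. They were chosen by symbol from the 26586 genes of a count table, and all 10 were found and had enough counts to be tested. The libraries come from uterine cells of 6-week-old Axin2rtTA; tetOH2BJGFP mice, in which doxycycline switches on a nuclear histone-GFP reporter wherever the Axin2 promoter drives the rtTA activator. The mice were ovariectomized at 4 weeks of age and rested for 2 weeks, and uteri were taken 4 days after doxycycline. Epithelial isolates were sorted into a GFP-positive fraction, labelled Axin2+, and a GFP-negative fraction, labelled Axin2-, with 3 libraries each. Both fractions carry both transgenes and had the same surgery and drug. The labels number the libraries by mouse but also speak of pooled cells; each library was taken as 1 fraction of 1 mouse, and if cells were pooled the p-values measure only the spread between libraries of a pool.

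Notch receptors are single-pass proteins that are activated by Jagged and Delta-like ligands on a neighbouring cell. Binding exposes the receptor to ADAM proteases and then to gamma-secretase, which releases the intracellular domain. In the nucleus this domain joins RBPJ and a Mastermind coactivator and switches on genes such as the Hes and Hey repressors and Nrarp, a feedback inhibitor. The pathway is best known for cell fate choices between neighbours, for Dll4 and Notch4 in blood vessels, and for Notch3 in vascular mural cells.

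Library depth ran from 49714402 to 59597315 counts. Axin2, whose promoter drives the reporter, did not bear out the labels. It stood at 165, 243 and 299 counts per 1000000 (CPM, TMM-scaled) in the libraries with the Axin2+ label of mice 1, 2 and 3, against 369, 357 and 356 CPM in those with the Axin2- label. Its difference of -0.61 ± 0.21 (SE) on the log2 scale missed the threshold of 0.05 in edgeR's quasi-likelihood test (adjusted p = 0.0710), but fell below it in DESeq2 (0.0337) and in edgeR with the mouse 3 library of the Axin2+ label left out (0.0290). Over all settings the adjusted p ran from 0.0290 to 0.182. Directions are therefore those of the libraries as labelled. The epithelial label held only in part. Of 12 epithelial markers 12 were higher in the libraries with the Axin2+ label, with summed levels of 2563 to 3627 CPM against 228 to 322 CPM in those with the Axin2- label. Smooth muscle markers summed to 286 to 461 CPM in the libraries with the Axin2+ label and 2558 to 6878 CPM in those with the Axin2- label, stromal markers to 3361 to 4644 CPM with the Axin2+ label and 10737 to 21800.3 CPM with the Axin2- label, and macrophage markers to 764 to 4224 CPM with the Axin2+ label and 75.01 to 388 CPM with the Axin2- label. In such mixed material fewer cells of a type and less RNA per cell cannot be told apart.

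Of the 10 Notch genes, 4 rose in the libraries with the Axin2+ label: the receptor Notch1, the ligands Jag2 and Dll4, and the target Hes1. The other 6, Notch2, Notch3, Notch4, Jag1, Dll1 and Nrarp, did not pass in either direction, and 0 were lower by edgeR at an adjusted or an unadjusted p under 0.05 or by DESeq2. Among all 16896 tested genes 14.5% were higher and 12.8% lower at an edgeR adjusted p under 0.05, 27.3% in all. The median log2 fold change was 0.30 over the 10 genes and -0.01 over all tested genes. Libraries did not overlap between the fractions for 4 of the 10 genes, the same 4 that passed, and for 47.2% of all tested genes.

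**Figure D1:**
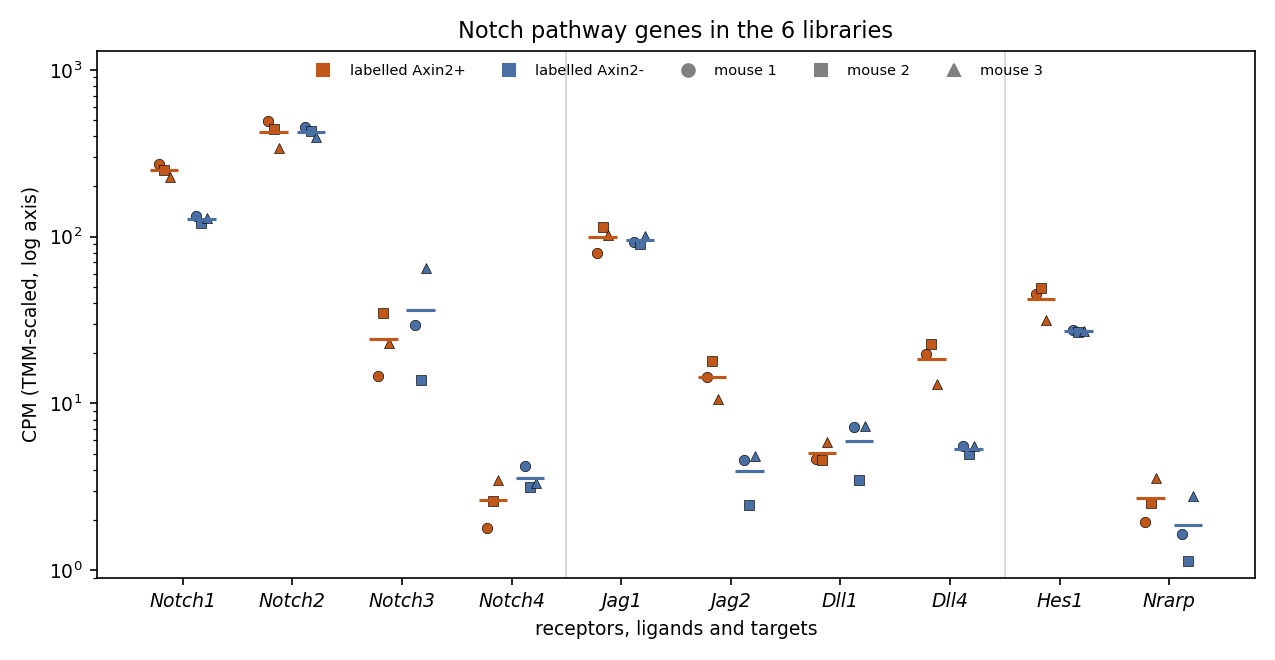
CPM on a log axis of the 10 Notch genes in each library; orange points are libraries with the Axin2+ label, blue points those with the Axin2- label, shapes are mice and horizontal lines are fraction means. The orange and blue points stand fully apart for Notch1, Jag2, Dll4 and Hes1 and overlap for the other 6 genes.

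Notch1 (ENSMUSG00000026923, chromosome 2, 26457903 to 26516663 on the minus strand of mm10), a receptor of epithelia and endothelium, had 272, 250.3 and 228 CPM in the libraries with the Axin2+ label of mice 1, 2 and 3, against 132, 121 and 129 CPM in those with the Axin2- label. Every library with the Axin2+ label stood above every library with the Axin2- label, and the spread within each fraction was small. Notch1 averaged 250.1 ± 21.8 CPM with the Axin2+ label and 127 ± 5.88 CPM with the Axin2- label (SD, n = 3 each). Its log2 fold change was 0.98 ± 0.12 (SE; edgeR adjusted p = 0.00152). It passed under all 14 other settings, with log2 fold changes of 0.91 to 1.14.

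Notch2 (ENSMUSG00000027878, chromosome 3, 98013527 to 98150361 on the plus strand), the receptor closest to Notch1 in domain layout, had 493, 442 and 342 CPM in the libraries with the Axin2+ label, against 455, 428 and 396 CPM in those with the Axin2- label. The fractions overlapped, with the libraries with the Axin2+ label holding both the highest and the lowest value. The log2 fold change was -0.0033 ± 0.17 (SE; edgeR adjusted p = 0.991). Its sign turned under some settings, from -0.12 to 0.16.

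Notch3 (ENSMUSG00000038146, chromosome 17, 32120820 to 32166852 on the minus strand), the receptor of vascular smooth muscle and pericytes, varied most among the receptors relative to its mean within each fraction. It had 14.6, 34.9 and 23.2 CPM in the libraries with the Axin2+ label of mice 1, 2 and 3, against 29.4, 13.9 and 64.9 CPM in those with the Axin2- label. The library with the Axin2- label of mouse 3 stood highest and that of mouse 2 lowest. The difference of -0.57 ± 0.55 (SE) on the log2 scale did not pass (edgeR adjusted p = 0.480) and was 0.17 without the library with the Axin2- label of mouse 3. That library also had the highest share of counts on ribosomal RNA genes, 23.81% against 14.75 to 16.68% in the other 5. With those genes left out of the fit the difference was -0.58. Whether the RNA quality of that library bears on its Notch3 value was not tested. Notch4 (ENSMUSG00000015468, chromosome 17, 34564268 to 34588503 on the plus strand), a receptor of endothelium, was low throughout, with 1.79, 2.61 and 3.46 CPM in the libraries with the Axin2+ label and 4.22, 3.15 and 3.34 CPM in those with the Axin2- label. The fractions overlapped, and the difference of -0.44 ± 0.36 (SE) on the log2 scale did not pass (edgeR adjusted p = 0.395).

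The ligand Dll4 (ENSMUSG00000027314, chromosome 2, 119325784 to 119335962 on the plus strand), known for its part in sprouting vessels, had 19.9, 22.6 and 13.1 CPM in the libraries with the Axin2+ label, against 5.54, 4.95 and 5.54 CPM in those with the Axin2- label. Even the lowest library with the Axin2+ label, that of mouse 3, was above all those with the Axin2- label. The means of 18.5 ± 4.88 CPM with the Axin2+ label and 5.34 ± 0.343 CPM with the Axin2- label (SD, n = 3 each) gave a log2 fold change of 1.79 ± 0.24 (SE; edgeR adjusted p = 0.00241). Jag2 (ENSMUSG00000002799, chromosome 12, 112907819 to 112929776 on the minus strand), a Jagged ligand, had 14.5, 18.05 and 10.7 CPM in the libraries with the Axin2+ label and 4.55, 2.46 and 4.86 CPM in those with the Axin2- label. These groups did not overlap either. Its means were 14.4 ± 3.68 CPM with the Axin2+ label and 3.96 ± 1.303 CPM with the Axin2- label (SD, n = 3 each), with a log2 fold change of 1.86 ± 0.34 (SE; edgeR adjusted p = 0.00747). Both ligands passed under all 14 other settings, with log2 fold changes of 1.63 to 1.99 for Dll4 and 1.62 to 2.05 for Jag2.

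Jag1 (ENSMUSG00000027276, chromosome 2, 137081456 to 137116644 on the minus strand), the ligand with the most reads, had 79.2, 115 and 103 CPM in the libraries with the Axin2+ label, against 93.4, 90.2 and 101 CPM in those with the Axin2- label. The libraries with the Axin2+ label lay on both sides of the others. The log2 fold change was 0.06 ± 0.15 (SE; edgeR adjusted p = 0.806), and was -0.06 without the library with the Axin2+ label of mouse 2. Dll1 (ENSMUSG00000014773, chromosome 17, 15367354 to 15376872 on the minus strand), a Delta-like ligand, had 4.66, 4.59 and 5.88 CPM in the libraries with the Axin2+ label and 7.17, 3.48 and 7.27 CPM in those with the Axin2- label. It did not pass (a change of -0.24 ± 0.34 (SE) on the log2 scale, edgeR adjusted p = 0.636).

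Hes1 (ENSMUSG00000022528, chromosome 16, 30064384 to 30067796 on the plus strand), a repressor and a direct Notch target, had 45.3, 49.05 and 31.6 CPM in the libraries with the Axin2+ label, against 27.5, 26.9 and 27.0 CPM in those with the Axin2- label. The libraries with the Axin2- label were nearly level, and the mouse 3 library with the Axin2+ label was the one nearest to them. The means of 41.98 ± 9.18 CPM with the Axin2+ label and 27.1 ± 0.295 CPM with the Axin2- label (SD, n = 3 each) gave a log2 fold change of 0.63 ± 0.18 (SE; edgeR adjusted p = 0.0392). With the mouse as a block Hes1 did not pass (log2 fold change 0.61, edgeR adjusted p = 0.0624). It did not pass when any 1 of 5 libraries was left out, those with the Axin2+ label of mice 1 and 2 (edgeR adjusted p = 0.0906 and 0.144) or labelled Axin2- of mice 1, 2 and 3 (0.0876, 0.0848 and 0.0945), with log2 fold changes of 0.51 to 0.67, and over all settings the adjusted p ran from 0.00984 to 0.144. Nrarp (ENSMUSG00000078202, chromosome 2, 25180758 to 25183339 on the plus strand), which encodes the feedback inhibitor, had 1.95, 2.53 and 3.59 CPM in the libraries with the Axin2+ label, against 1.65, 1.14 and 2.801 CPM in those with the Axin2- label. It was higher in the library with the Axin2+ label in 3 of 3 mice, but the fractions overlapped and it did not pass (a change of 0.53 ± 0.46 (SE) on the log2 scale, edgeR adjusted p = 0.432). An antisense transcript, Gm38287, covers 2051 bases of the Nrarp exon, and without a stated strand setting its reads cannot be told from those of Nrarp.

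The 250 bases before the RefSeq start are shown for Dll4 and Notch1, which rose together, and for Nrarp, which did not pass. The Notch1 start used by RefSeq lies inside the span given above. Capitals mark matches on either strand to CACGNG and CACNAG, the E box and N box variants that HES and HEY factors bind; the sequences are from RefSeq on GRCm38.p6, the assembly of mm10, 5′ to 3′ on the strand of the gene. Dll4 lies at chr2:119325534-119325783 (plus strand), Notch1 at chr2:26503823-26504072 (minus strand) and Nrarp at chr2:25180508-25180757 (plus strand).
Dll4: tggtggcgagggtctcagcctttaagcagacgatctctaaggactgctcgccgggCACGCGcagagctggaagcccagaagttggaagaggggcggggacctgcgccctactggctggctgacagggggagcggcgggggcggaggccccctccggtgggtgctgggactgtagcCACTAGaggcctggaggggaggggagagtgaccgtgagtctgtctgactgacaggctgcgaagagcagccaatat
Notch1: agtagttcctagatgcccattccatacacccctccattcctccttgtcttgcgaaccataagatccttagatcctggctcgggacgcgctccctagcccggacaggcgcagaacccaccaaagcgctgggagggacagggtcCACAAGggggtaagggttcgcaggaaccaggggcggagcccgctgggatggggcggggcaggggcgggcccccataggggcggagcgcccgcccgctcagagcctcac
Nrarp: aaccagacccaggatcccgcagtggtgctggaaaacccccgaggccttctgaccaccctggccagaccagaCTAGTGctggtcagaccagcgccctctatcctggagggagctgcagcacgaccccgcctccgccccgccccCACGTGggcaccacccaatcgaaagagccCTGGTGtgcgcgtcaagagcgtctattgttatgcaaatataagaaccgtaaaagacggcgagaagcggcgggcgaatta
The Dll4 stretch holds CACGCG 195 bases before the start and CACTAG at 75 bases, the Notch1 stretch holds CACAAG at 108 bases, and the Nrarp stretch holds CACGTG at 108 bases and the N box complements CTGGTG at 79 and CTAGTG at 179 bases, counted at the first base of each match. Windows were found for 9 of the 10 genes, all but Hes1, with 10 windows because Dll1 has a second start. CACGNG was present in 7 of these 10 windows and in 23.5% of 32851 windows of all genes, and CACNAG in 5 of 10 and in 36.7%; CACGAG counts for both. The core bound by RBPJ, TGGGAA or its complement TTCCCA, was in 0 of the 10 windows and in 21.6% of all windows. Both Dll1 windows are among the 7. The windows of the members held 56 to 87.2% G and C, and no comparison was made with windows of equal G and C content. Some windows lie in annotated exons of their own gene, by 250 bases for Jag2, 153 for a Dll1 window and 124 for Jag1. A match describes letters only.

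Divided by exon length, levels can be set side by side. In the libraries with the Axin2+ label the order by mean CPM per kb was Notch2 (40.5 ± 7.32), Hes1 (28.6 ± 6.25), Notch1 (26.4 ± 2.30), Jag1 (17.6 ± 3.219), Dll4 (4.95 ± 1.301), Notch3 (3.02 ± 1.27), Jag2 (2.82 ± 0.722), Dll1 (1.41 ± 0.203), Nrarp (1.04 ± 0.323) and Notch4 (0.398 ± 0.127; SD, n = 3 each). Of neighbours in that order, Notch2 and Hes1, Hes1 and Notch1, Dll4 and Notch3, Notch3 and Jag2, and Dll1 and Nrarp overlapped between libraries. In the libraries with the Axin2- label the order was Notch2 (40.6 ± 2.85), Hes1 (18.5 ± 0.201), Jag1 (16.9 ± 0.990), Notch1 (13.4 ± 0.620), Notch3 (4.50 ± 3.26), Dll1 (1.67 ± 0.604), Dll4 (1.43 ± 0.0916), Jag2 (0.775 ± 0.255), Nrarp (0.722 ± 0.330) and Notch4 (0.541 ± 0.0869). There Notch3 and Dll1, Dll1 and Dll4, Jag2 and Nrarp, and Nrarp and Notch4 overlapped. With these lengths Notch1 ranked above Jag1 in the libraries with the Axin2+ label and below it in those with the Axin2- label, in both cases without overlap. Some ranks depend on the lengths, which come from the protein-coding transcripts of the basic annotation. With those of the comprehensive annotation, tried after seeing the data, Notch1 and Jag1 overlapped in the libraries with the Axin2+ label, at means of 17.6 and 16.96 CPM per kb. In the libraries with the Axin2- label Jag1 (16.3) then stood above Hes1 (13.3) without overlap, and Nrarp (0.722) above Jag2 (0.568) with overlap.

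The makeup of the receptors and of the ligands, which does not depend on how libraries are scaled, was compared between the fractions. Notch1 made up 36.9, 36.0 and 40.1% of the summed receptor level per kb in the libraries with the Axin2+ label, against 22.6, 22.8 and 22.7% in those with the Axin2- label. Notch2 made up 57.4 ± 3.09% with the Axin2+ label and 68.8 ± 5.31% with the Axin2- label (SD, n = 3 each). Among the ligands, Jag1 made up 59.9, 65.3 and 71.6% in the libraries with the Axin2+ label and 79.2, 85.3 and 80.1% in those with the Axin2- label. Dll4 took 18.5 ± 4.43% with the Axin2+ label and 6.88 ± 0.254% with the Axin2- label, and Jag2 took 10.5 ± 2.03% with the Axin2+ label and 3.68 ± 0.969% with the Axin2- label. The shares of Notch1, Notch2, Jag1, Jag2 and Dll4 did not overlap between fractions. Shares within a set add up to the whole, so lower shares of Notch2 and Jag1 are not separate from higher shares of the others. In level, Notch2 and Jag1 did not pass. An exact two-sided permutation test over libraries gave p = 0.1 for the Notch1 and the Jag1 share, the smallest value 3 libraries against 3 allow, or 0.16 adjusted over the 8 shares compared. Summed receptor levels were 70.3 ± 9.19 CPM per kb in the libraries with the Axin2+ label and 59.1 ± 3.02 in those with the Axin2- label, and summed ligand levels were 26.8 ± 4.03 with the Axin2+ label and 20.8 ± 1.82 with the Axin2- label.

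**Figure D2:**
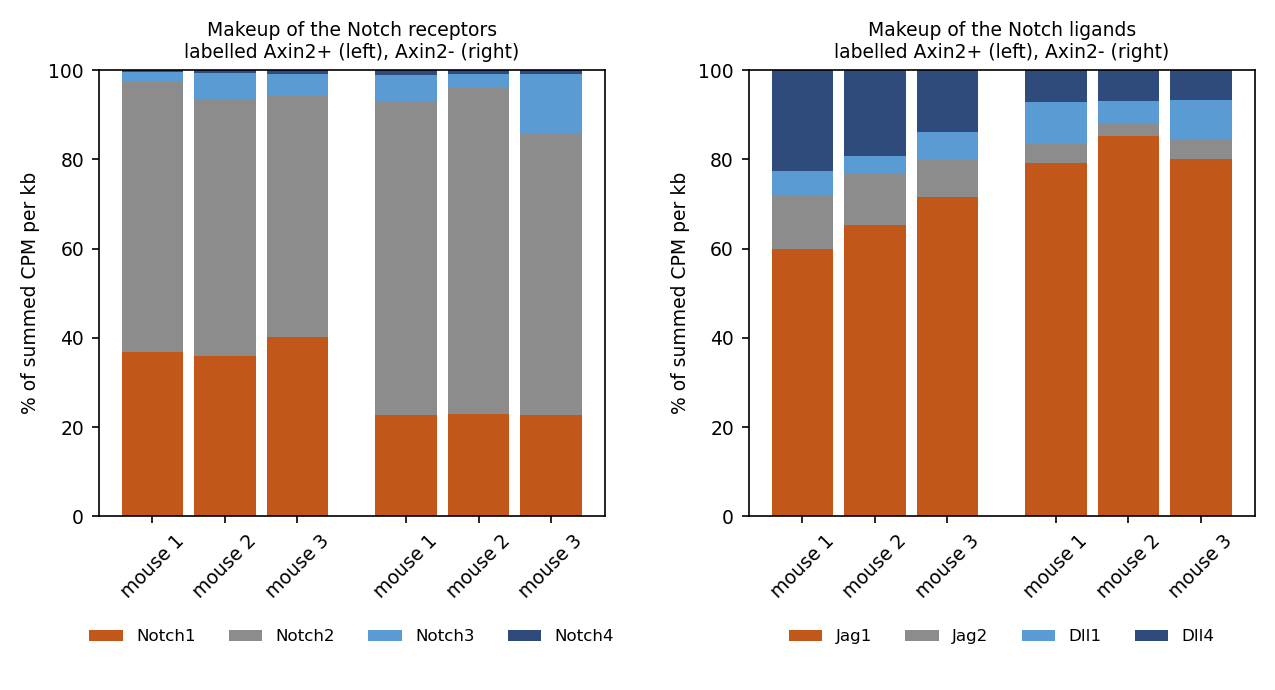
Percentage of the summed CPM per kb of the 4 receptors (left panel) and of the 4 ligands (right panel) held by each gene, 1 bar per library, those with the Axin2+ label on the left of each panel. The Notch1 segment spans 36.0 to 40.1% in the libraries with the Axin2+ label and 22.6 to 22.8% in those with the Axin2- label, and the Dll4 and Jag2 segments are larger in every library with the Axin2+ label than in any with the Axin2- label.

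The wider pathway was read from lists grouped by role, 49 further genes of which 44 could be tested. Of these, 8 rose and 8 fell, or 18.2% in each direction against 14.5% and 12.8% of all tested genes. The 8 that rose were Furin, Adam10, Adam17, Psenen and Ncstn of the receptor cleavage list, Lfng, Fbxw7 and Hes6. The 8 that fell were Pofut1, Mib2, Neurl1a, Maml1, Maml3, Kat2b, Numbl and Dtx3.

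Among the glycosyltransferases that modify Notch receptors, Lfng, a fringe enzyme that alters which ligands a receptor answers, had 39.2, 33.4 and 17.5 CPM in the libraries with the Axin2+ label, against 10.8, 4.74 and 9.08 CPM in those with the Axin2- label. The fractions did not overlap, and the log2 fold change was 1.87 ± 0.40 (SE; edgeR adjusted p = 0.0143). Pofut1, which adds the fucose that fringe enzymes extend, fell, with 44.8 ± 5.66 CPM in the libraries with the Axin2+ label and 69.5 ± 4.46 CPM in those with the Axin2- label (SD, n = 3 each; edgeR adjusted p = 0.0123). It did not pass without the library with the Axin2+ label of mouse 2 (0.0603). The other 4 of 6 in that list, Mfng, Rfng, Poglut1 and Eogt, did not pass.

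Among the proteases, Adam10, the metalloprotease that cuts ligand-bound Notch, had 153 ± 34.3 CPM in the libraries with the Axin2+ label and 84.7 ± 5.65 CPM in those with the Axin2- label (SD, n = 3 each), a log2 fold change of 0.85 ± 0.18 (SE; edgeR adjusted p = 0.0136). Adam17, a related sheddase, had 62.8 ± 10.6 CPM with the Axin2+ label and 35.6 ± 6.78 CPM with the Axin2- label. Furin, the convertase that cleaves the receptor on its way to the surface, had 164 ± 23.9 CPM with the Axin2+ label and 109.7 ± 3.50 CPM with the Axin2- label. The gamma-secretase subunit genes Ncstn, with 86.6 ± 6.50 CPM with the Axin2+ label and 56.7 ± 4.50 CPM with the Axin2- label, and Psenen, with 18.2 ± 2.38 CPM with the Axin2+ label and 11.8 ± 1.33 CPM with the Axin2- label, rose as well, whereas Psen2 and the 3 Aph1 genes did not pass. The 5 that rose had no overlap of libraries between fractions, but they were picked by their p-values, so this is no separate support. Among all tested genes, called or not, 47.2% had no overlap. Aph1a and Aph1b, which did not pass, had no overlap either, and Aph1b was lower with the Axin2+ label. Ncstn and Lfng passed under all 14 other settings. Adam10, Adam17 and Furin did not pass without the library with the Axin2+ label of mouse 2 (edgeR adjusted p = 0.0546, 0.0615 and 0.0768), nor Adam10 and Furin without that with the Axin2- label of mouse 3 (0.0512 and 0.0582). Psenen did not pass when 1 of 4 libraries was left out, those with the Axin2+ label of mice 1 and 2 (0.101 and 0.140) or labelled Axin2- of mice 1 and 3 (0.0913 and 0.0945).

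Of the ligand-side ubiquitin ligases, which drive the endocytosis of ligands, Mib2 and Neurl1a fell and Mib1 and Neurl1b did not pass. Neurl1a had 3.70 ± 0.330 CPM in the libraries with the Axin2+ label and 8.48 ± 2.88 CPM in those with the Axin2- label (SD, n = 3 each; edgeR adjusted p = 0.0264), and passed without 1 library only when that was the one labelled Axin2- of mouse 2; without each of the others its adjusted p was 0.0502 to 0.0952. Mib2 had 71.1 ± 0.996 CPM with the Axin2+ label and 96.4 ± 11.2 CPM with the Axin2- label (edgeR adjusted p = 0.0309). It did not pass with the mouse as a block (0.0565), with library size alone (0.115), or when any 1 library other than that with the Axin2- label of mouse 1 was left out (0.0558 to 0.103).

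Rbpj, the DNA-binding partner of the Notch intracellular domain, had 77.2 ± 13.1 CPM in the libraries with the Axin2+ label and 60.9 ± 9.19 CPM in those with the Axin2- label (SD, n = 3 each) and did not pass (edgeR adjusted p = 0.181). Of the nuclear cofactors, Maml1 and Maml3, Mastermind coactivators, and Kat2b, a histone acetyltransferase, fell, and 7 of the 10 in that list did not pass. Maml3 had 47.99 ± 11.4 CPM with the Axin2+ label and 84.2 ± 7.65 CPM with the Axin2- label (log2 fold change -0.81 ± 0.19 SE, edgeR adjusted p = 0.0185), and Maml1 had 52.9 ± 1.80 CPM with the Axin2+ label and 77.01 ± 10.1 CPM with the Axin2- label (0.0199). Maml3 did not pass without the library with the Axin2- label of mouse 3 (0.0637), nor Maml1 without that with the Axin2+ label of mouse 2 (0.0843), without that with the Axin2- label of mouse 1 (0.0678) or with library size alone (0.0981). Kat2b had 46.9 ± 3.14 CPM with the Axin2+ label and 66.7 ± 9.37 CPM with the Axin2- label (edgeR adjusted p = 0.0326). It did not pass with the mouse as a block (0.0741), with library size alone (0.0899), or when 1 of 4 libraries was left out, those with either label of mice 2 and 3 (0.0693 to 0.113).

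Of 10 tested inhibitors and modifiers, Numbl and Dtx3 fell and Fbxw7 rose. Numbl, an adaptor related to the Notch inhibitor Numb, had 16.2, 26.2 and 31.2 CPM in the libraries with the Axin2+ label, against 66.1, 87.7 and 62.4 CPM in those with the Axin2- label, a log2 fold change of -1.55 ± 0.26 (SE; edgeR adjusted p = 0.00564). Dtx3, of the Deltex ubiquitin ligases, had 49.1 ± 8.71 CPM with the Axin2+ label and 112 ± 14.6 CPM with the Axin2- label (SD, n = 3 each; edgeR adjusted p = 0.00263). Both had no overlap between the fractions and passed under all 14 other settings. Fbxw7, the ubiquitin ligase subunit that marks the Notch intracellular domain for breakdown, had 54.2 ± 11.9 CPM with the Axin2+ label and 34.1 ± 1.78 CPM with the Axin2- label (edgeR adjusted p = 0.0319), and did not pass when any 1 library other than that with the Axin2+ label of mouse 3 was left out (0.0663 to 0.114). Numb, the best known inhibitor, had 37.3 ± 2.10 CPM with the Axin2+ label and 33.1 ± 1.20 CPM with the Axin2- label and did not pass (edgeR adjusted p = 0.315).

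Among the HES and HEY repressors, Hes1 and Hes6 rose and the other 4 tested, Hes7, Hey1, Hey2 and Heyl, did not pass. Hes6, which unlike Hes1 is known to favour differentiation, had 15.6, 14.4 and 15.8 CPM in the libraries with the Axin2+ label, against 7.21, 6.34 and 10.8 CPM in those with the Axin2- label (log2 fold change 0.91 ± 0.24 SE, edgeR adjusted p = 0.0285). It did not pass when any 1 library other than that with the Axin2- label of mouse 3 was left out (0.0610 to 0.0777). Heyl, a Notch target of mural cells, had 3.86, 3.96 and 11.5 CPM in the libraries with the Axin2+ label, against 21.9, 21.0 and 12.8 CPM in those with the Axin2- label. These groups did not overlap, but Heyl just missed the threshold (log2 fold change -1.53 ± 0.47 SE, edgeR adjusted p = 0.0512). It passed without the library with the Axin2+ label of mouse 3 (-2.24, 0.00418), in DESeq2 (0.00415) and under some other settings (0.0480 and 0.04997), with adjusted p up to 0.143 overall. Hes2, Hes3 and Hes5 had at most 12 reads in a fraction and were not tested, nor was the ligand Dll3, with 18 reads in the libraries with the Axin2+ label and 42 in those with the Axin2- label.

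**Figure D3:**
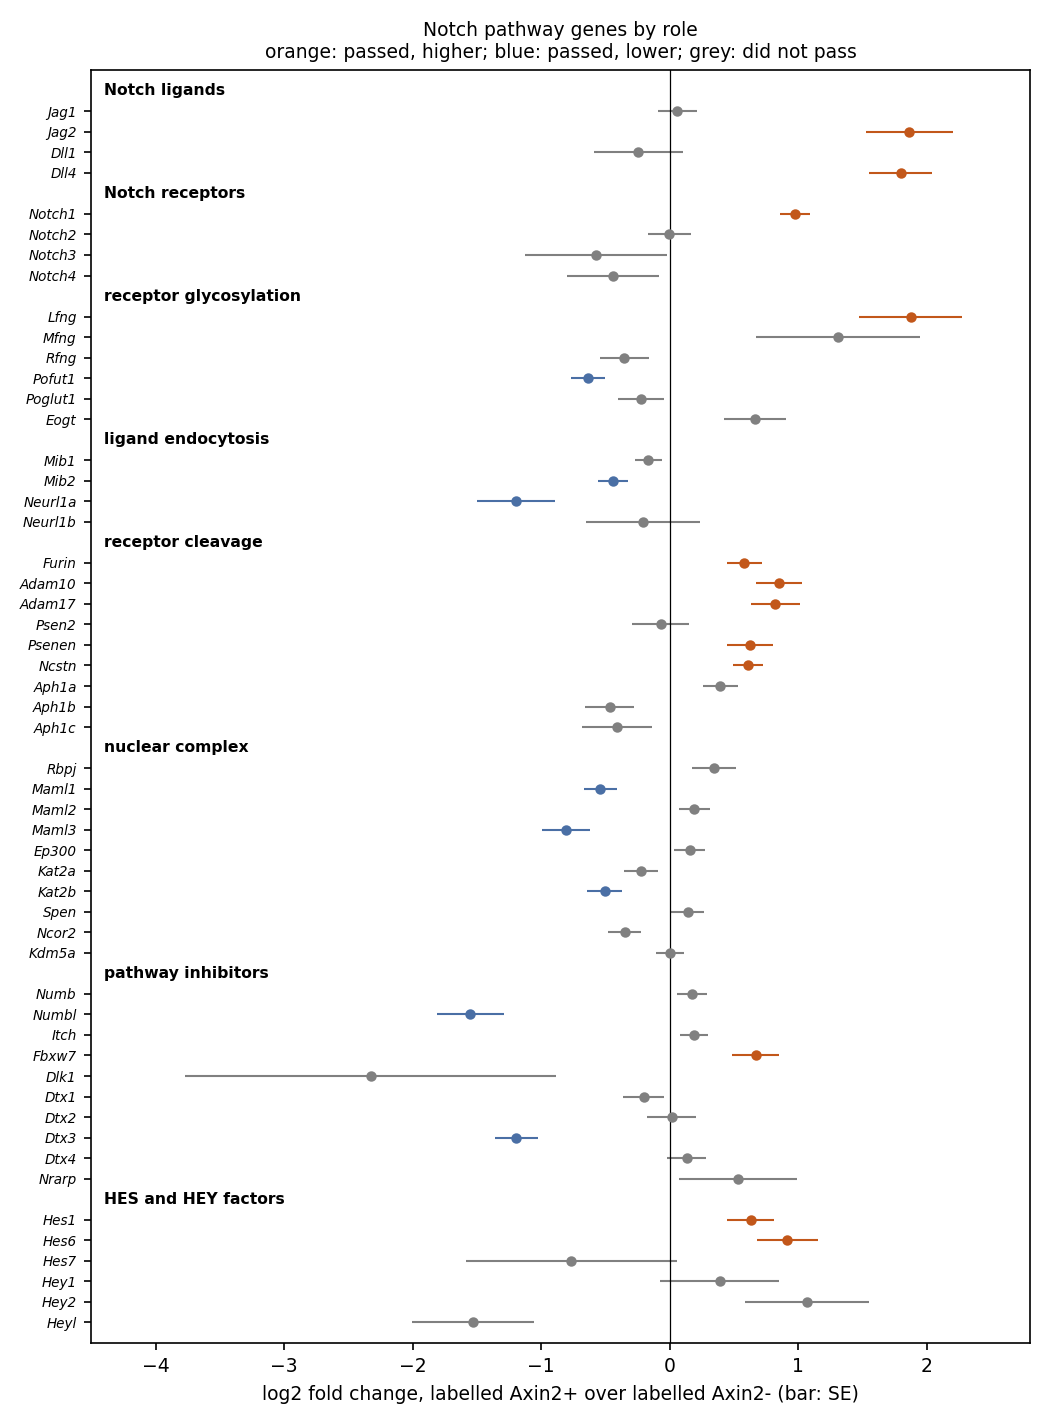
Log2 fold change, libraries with the Axin2+ label over those with the Axin2- label, of tested Notch pathway genes by role, with bars of 1 SE. Orange genes rose and blue genes fell at an edgeR adjusted p under 0.05, and grey genes did not pass; 5 cleavage genes are orange and 3 of the 10 nuclear genes are blue.

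Markers of vessel cells were set beside the members. Of 17 endothelial markers 10 rose and 7 did not pass, with summed levels of 343, 659 and 415 CPM in the libraries with the Axin2+ label against 241, 238 and 285 CPM in those with the Axin2- label. Cldn5, an endothelial tight junction gene, had 17.7, 23.5 and 12.3 CPM in the libraries with the Axin2+ label and 6.09, 2.95 and 5.17 CPM in those with the Axin2- label. Among the libraries with the Axin2+ label, Jag2 and Dll4 were highest in mouse 2 and lowest in mouse 3. The markers Kdr, Tie1, Erg, Cldn5 and Sox18 stood in that order, 5 of the 17, and the other 12 did not. Within both fractions, 2 of the 17 had the mouse order of Dll4 (Kdr and Cldn5) and 2 that of Jag2 (Tie1 and Sox18). For Notch4 that number was 0. How many of all genes have these orders was not counted. Cdh5, the endothelial cadherin and the marker with the most reads in that list, had 55.1, 88.3 and 93.4 CPM in the libraries with the Axin2+ label against 98.9, 169 and 151 CPM in those with the Axin2- label, and did not pass (edgeR adjusted p = 0.0559). The part of endothelial RNA in the levels of Dll4, Jag2 and Notch4 was not tested.

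Of 9 tested pericyte markers 5 fell, 3 did not pass and 1, Anpep, rose. Anpep, an aminopeptidase also found in many epithelia and the highest marker of that list, averaged 1848 ± 135 CPM in the libraries with the Axin2+ label and 279.6 ± 68.7 CPM in those with the Axin2- label (SD, n = 3 each). The other 9 markers summed to 52.3, 118 and 141 CPM in the libraries with the Axin2+ label and 458, 332 and 579 CPM in those with the Axin2- label. Rgs5, a pericyte marker, had 0.224, 6.21 and 3.35 CPM in the libraries with the Axin2+ label and 8.34, 3.15 and 12.2 CPM in those with the Axin2- label. Its order of mice within each fraction was that of Notch3, which held for 3 of the 9 tested pericyte markers (Rgs5, Abcc9 and Kcnj8) and for 0 of the 10 smooth muscle markers. The other 6 pericyte markers, Pdgfrb and Cspg4 among them, stood in another order in at least 1 fraction. With the Axin2+ label the shared order rests partly on close or low values. Kcnj8 had 216, 234 and 219 reads in mice 1, 2 and 3, and Rgs5 had 13, 329 and 180. The share of all genes with that order was not counted. The potassium channel genes were Abcc9, with 67.9, 20.3 and 118 CPM, and Kcnj8, with 28.3, 12.0 and 39.4 CPM in the libraries with the Axin2- label of mice 1, 2 and 3. In the libraries with the Axin2+ label they were far lower, at 1.33, 4.32 and 2.46 CPM for Abcc9 and 3.73, 4.42 and 4.08 CPM for Kcnj8, and fell (edgeR adjusted p = 0.00470 and 0.00428). Notch3 did not pass, and the part of mural cell RNA in its level was not tested.

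**Figure D4:**
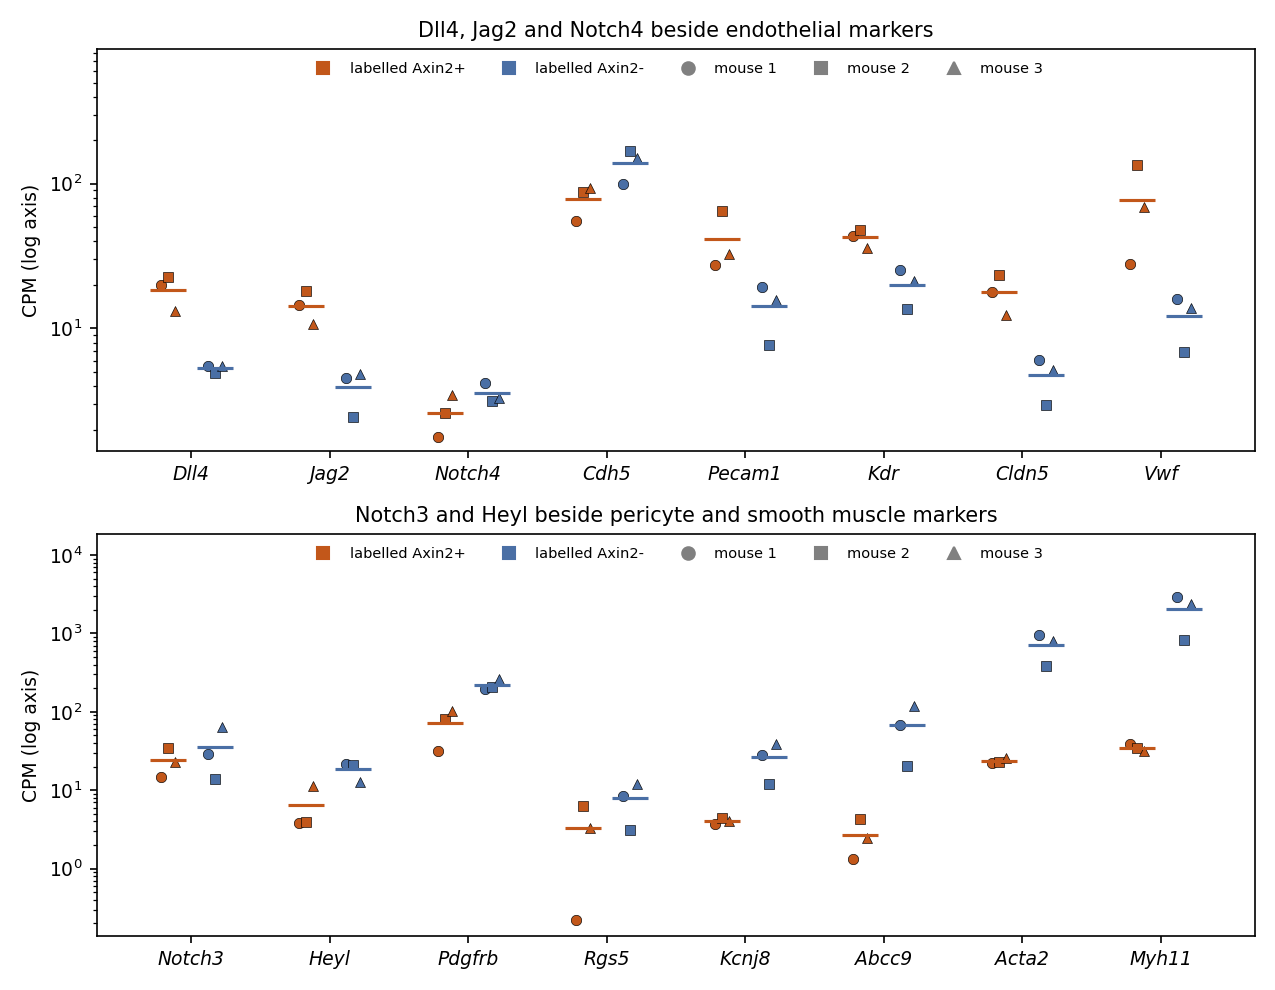
CPM on a log axis of Dll4, Jag2 and Notch4 beside 5 endothelial markers (top) and of Notch3 and Heyl beside 6 pericyte and smooth muscle markers (bottom); orange points are libraries with the Axin2+ label, blue points those with the Axin2- label, shapes are mice and lines are fraction means. Among the endothelial markers drawn, Pecam1, Kdr, Cldn5 and Vwf stand higher in every orange point than in any blue one, as do Jag2 and Dll4. Cdh5 goes the other way, with every orange point below every blue one. Notch3 overlaps between fractions while Abcc9 and Kcnj8 do not.

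Other cell types were present as well. Of 12 macrophage markers 11 rose, with the highest sum, 4224 CPM, in the library with the Axin2+ label of mouse 1, and 764 CPM in that of mouse 3. Notch1 had 272 CPM in the library of that fraction of mouse 1 and 228 CPM in that of mouse 3. Epithelial markers summed to 3627 and 2563 CPM in the same libraries. With the Axin2- label, macrophage markers summed to 292, 75.0 and 388 CPM in mice 1, 2 and 3. Notch1 had 132, 121 and 129 CPM there. T and NK cell markers summed to 0.415 to 3.14 CPM in the libraries with the Axin2+ label and 17.7 to 29.5 CPM in those with the Axin2- label, and 5 of 8 fell. Of 7 mesothelial markers 5 rose and 1, Wt1, fell, with sums of 210 to 627 CPM with the Axin2+ label and 189 to 236 CPM with the Axin2- label. Of 7 tested markers of ciliated cells, a fate that Notch holds back in several epithelia, Foxj1 and Tekt4 rose, Ccno fell and 4 did not pass, with sums of 11.4 to 18.2 CPM with the Axin2+ label and 16.8 to 24.9 CPM with the Axin2- label. Of the highest marker of each list, the keratin gene Krt8 averaged 596 CPM with the Axin2+ label and 59.6 CPM with the Axin2- label. The smooth muscle myosin Myh11 averaged 35.04 CPM with the Axin2+ label and 2030.2 CPM with the Axin2- label. The collagen gene Col3a1 averaged 726 CPM with the Axin2+ label and 4348 CPM with the Axin2- label, and the macrophage lysozyme Lyz2 averaged 962 CPM with the Axin2+ label and 76.2 CPM with the Axin2- label. Of the rarer lists they were Cd3e, Wt1 and Ccdc39. The T cell receptor subunit Cd3e had 0.193 CPM with the Axin2+ label and 6.21 CPM with the Axin2- label. Wt1 of the mesothelial list had 75.1 CPM with the Axin2+ label and 161 CPM with the Axin2- label, against the direction of the 5 that rose. The ciliary gene Ccdc39 had 6.00 CPM with the Axin2+ label and 11.6 CPM with the Axin2- label. The ciliary gene Pifo, listed as 1700027A23Rik, had 7 reads in the libraries with the Axin2+ label and 0 in those with the Axin2- label. The part of these cell types in the Notch values was not tested.

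The genes whose profile over the 6 libraries was nearest to each member were found by the root mean square difference of log2 CPM about each gene's mean, among 11084 genes with a mean of at least 5 CPM. Nearness is a description only. Notch4 and Nrarp, below that level, were left out. Nearest to Notch1 were Tpst2 (0.0342) and Zfp809 (0.0394), to Jag2 were Cldn5 (0.109) and Hoxb5 (0.114), to Dll4 were Nceh1 (0.140) and Mastl (0.142), and to Hes1 were Vps37c (0.0592) and Fbxw7 (0.0637). Among genes that did not pass, Notch2 was nearest to Stat6 (0.0448) and Bnip2 (0.0474), Jag1 to Usp20 (0.0613) and Cops7b (0.0627), and Dll1 to Adamts9 (0.0758) and Tbrg3 (0.0764). For Notch3 the nearest was the microRNA gene Mir5115 (0.115), with 17.6, 35.0 and 26.2 CPM in the libraries with the Axin2+ label and 32.9, 17.7 and 67.96 CPM in those with the Axin2- label, and the next, Lmtk3, was at 0.307. By comparison, the libraries of Notch3 themselves spread by 0.761 about its mean.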

How the data were processed

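The authors deposited raw counts of 6 libraries by gene symbol. Libraries were prepared with Ribo-Zero Gold, which depletes ribosomal RNA, per the labels' protocols; ribosomal RNA genes still held 14.75 to 23.81% of counts. Per the submitters' processing notes the build was mm10 and the tools included STAR (2.5.3a) and featureCounts (1.5.3); which annotation and which strand setting were used is not given in the sources used here. Library totals are given above, and depth limits genes of few reads most.

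Counts were analysed with R 4.3.3 and edgeR 4.0.16: filterByExpr, TMM scaling, robust quasi-likelihood F test between fractions without a mouse block, Benjamini-Hochberg adjustment over 16896 genes, threshold 0.05. Each SE is the size of the log2 fold change over the root of F. The fit was also run on simulated counts, and the outcome is not given here. Shares were tested with SciPy 1.17.1. Alternatives were DESeq2 1.42.0, other scalings and filters, leaving out ribosomal RNA genes, the mouse as a block and leaving out each library. The labels' protocol says that the numeral is the mouse, so both fractions of a number share an animal; deviations from fraction means correlated across genes within mice 1, 2 and 3 at 0.27, 0.01 and -0.07, and between different mice at -0.24 to 0.25, so the counts themselves do not show the pairing. No libraries agreed within sampling noise (lowest chi-square per degree of freedom 59.7).

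Coordinates and exon lengths (union of protein-coding exons of the basic set) come from GENCODE M21 of GRCm38. Notch1 shares 1068 exon bases with 0610009E02Rik and 414 with Gm13568. Dll1 shares 867 with A930024N18Rik, Dll4 shares 214 with Gm14207 and Notch3 shares 488 with Gm17276. These partners lie on the opposite strand, and without a stated strand setting reads there cannot be told apart. Notch2 shares 541 exon bases with Gm42820 on the same strand, where strand does not separate the reads. Of 159 list entries 152 matched directly, 6 matched by an earlier symbol and 1 (Trac) had no match. A pathway gene is counted in its list but not reported here. Members and lists were chosen with earlier results of these data known. Named genes are the members, Axin2, pathway list genes that passed, of each marker list the highest gene and any at 0 in a fraction, and the 2 nearest genes of each member with a mean of at least 5 CPM; other genes given with values (such as Rbpj, Numb, Heyl, Rgs5, Abcc9, Kcnj8 and Cldn5) were chosen after their values were seen.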

Additional observations from a re-analysis of the deposited data

How the results depend on the processing

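Notch1, Jag2 and Dll4 passed under all 14 other settings. Hes1 kept its direction but lost its call in 6 of them. The members that rose numbered 3 with the mouse as a replicate block and 3 to 4 without 1 library. The median log2 fold change of the 10 genes was 0.31 with the replicate block, 0.48 with library size alone and 0.15 to 0.41 without 1 library; that of all tested genes moved to 0.16 with library size alone, and was -0.0134 to 0.0195 without 1 library.

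The sign of Notch2 turned with library size alone (0.16), with no filter on low counts (0.00089), and without 1 library (-0.12 to 0.16 over all settings: 0.074 without that with the Axin2- label of mouse 1, 0.0013 without that of mouse 2, and 0.13 without that with the Axin2+ label of mouse 3). Without 1 library Notch3 ranged from -0.96 to 0.17 and Jag1 from -0.059 to 0.20. Axin2 passed in DESeq2 (-0.62, adjusted p = 0.0337) and without the library with the Axin2+ label of mouse 3 (-0.82, adjusted p = 0.0290); without 1 library it ranged from -0.82 to -0.41.

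Of the further pathway genes 2 to 7 rose and 3 to 6 fell without 1 library, where fewer libraries were fitted. With library size alone 11 rose and 5 fell, and with the replicate block 8 and 6; in DESeq2 8 rose and 10 fell. The Notch1 share of the receptors differed by 14.96 percentage points, by 12.5 with the exon lengths of the comprehensive annotation, a setting chosen after seeing the data, and by 13.8 to 15.8 without 1 library. The Jag1 share differed by -15.9 points, and by -18.9 to -13.06 without 1 library. With the mouse as a replicate block these differences, 14.96 and -15.9, are the same by construction, and the exact p of 0.25 is the smallest 3 pairs allow. Notch4 and Nrarp, both under about 5 CPM, had SEs of 0.36 and 0.46 on the log2 scale. The largest SE among the members was that of Notch3, 0.55. Its means were 24.2 CPM with the Axin2+ label and 36.1 CPM with the Axin2- label.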
